A study of Rattus norvegicus with 12 samples.

Results

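The 40 genes described here encode the machinery of mitosis: the cyclins and kinases that start it, the kinetochore and spindle parts that carry it out, and the factors that end it. They were chosen by name, and all 40 were found among the 33294 gene symbols of the count table. Each was counted in 12 poly(A) RNA-Seq libraries of PAC1 cells, a smooth muscle cell line from rat pulmonary artery, with 3 libraries in each of 4 groups. D1 were PAC1 cells kept in a differentiated state by weekly passage at a 1:10 dilution and given a scrambled control siRNA. P were PAC1 cells kept proliferating by 2 passages a week at 1:20, given the same control siRNA. RBPMS KD1 were differentiated cells given siRNA against Rbpms, which encodes an RNA-binding protein of smooth muscle that controls splicing. MBNL KD were differentiated cells given siRNAs against Mbnl1 and Mbnl2, which encode splicing factors of the Muscleblind family, although the sample titles name MBNL1 only. The cells of all 12 libraries were grown in medium with serum and transfected 2 times, with 90 pmol of siRNA. The sample labels place the second transfection after 24 h and harvest 48 h later, while the study's methods give later times. All libraries therefore come from 1 rat cell line in culture, and D1 and P differ in passage history as well as in state.

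A cell enters mitosis when cyclin B and CDK1 are active together, after which Polo-like and Aurora kinases build the spindle and the kinetochores attach chromosomes to it. The spindle checkpoint holds the cell at this stage until every kinetochore is attached, and the anaphase-promoting complex (APC/C) then destroys securin and cyclin B so that sister chromatids part and the cell divides. Most of these mRNAs are made only from late S phase to mitosis, under the MuvB complexes with B-MYB and FOXM1, and the same promoters are kept silent by the DREAM complex in resting cells. Arterial smooth muscle cells rarely divide in the healthy vessel wall and re-enter the cell cycle when they lose their contractile state. In bulk RNA of this kind, fewer dividing cells and less mitotic mRNA per dividing cell cannot be told apart.

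Library totals ran from 80842635 to 90771289 counts, and levels below are in CPM, a gene's count relative to its library's total after scaling by TMM factors. The lowest count of any of the 40 genes in any library was 333 and the highest was 32747, so all 40 passed the filter on low counts in every group. The siRNA targets were lower in the groups labelled for them. Rbpms stood at 24.7% to 25.5% of the D1 mean in RBPMS KD1, Mbnl1 at 23.5% to 24.0% in MBNL KD, and Mbnl2 at 29.0% to 30.0%. Rbpms was also at 6.23% to 6.36% in P. The summed level of 8 smooth muscle markers ranged over 9819 to 10319 CPM in D1, 210.5 to 224 in P, 4889 to 5066 in RBPMS KD1 and 7818 to 7935 in MBNL KD, so the markers of the labelled cell type were abundant in the 3 groups of differentiated cells and low in P. Of the 40 genes, 8 overlap another protein-coding gene in the annotation (Plk1, Aurka, Spc25, Kif11, Nusap1, Kif4a, Kif20a and Anln), and as the strand setting of the counting is not stated, reads shared with the neighbour cannot be told apart.

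The 40 mRNAs together ordered the groups by their summed level. They summed to 3047, 2994 and 3063 CPM in the D1 libraries and to 3076, 3094 and 3041 in P, against 2359.9, 2317 and 2415 in RBPMS KD1 and 1886, 1869.9 and 1872 in MBNL KD. With this TMM scaling D1 and P overlapped, while every RBPMS KD1 library lay under both and every MBNL KD library lay under every RBPMS KD1 library. Relative to the D1 mean, the group means were 101% in P, 77.9% in RBPMS KD1 and 61.8% in MBNL KD. As a share of total counts, the 40 took 0.293, 0.286 and 0.294% in D1 and 0.332, 0.334 and 0.325% in P, which did not overlap, with 0.229, 0.224 and 0.236% in RBPMS KD1 and 0.187, 0.187 and 0.188% in MBNL KD. Gene by gene and with TMM, MBNL KD held the lowest group mean for 37 of the 40, P for 2 and RBPMS KD1 for 1. The highest mean was in P for 23 genes and in D1 for the other 17. For 33 of the 40, every MBNL KD library was under every RBPMS KD1 library and every RBPMS KD1 library was under every D1 library. This order was held by 7.76% of the 15500 genes tested in all 3 comparisons with D1. Replicates were close, with a median coefficient of variation between 1.93% within MBNL KD and 3.47% within RBPMS KD1.

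**Figure D1:**
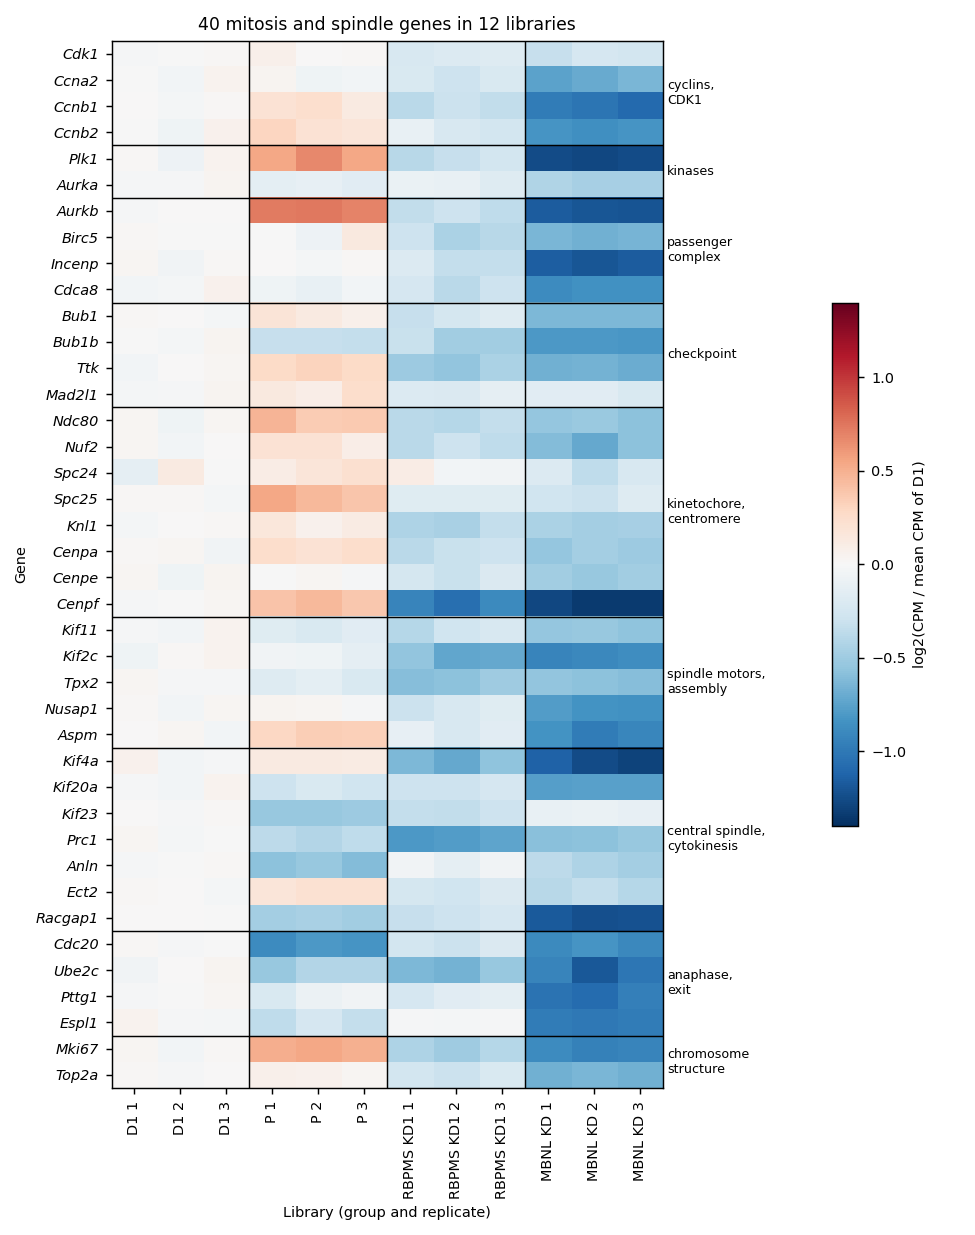
Level of each of the 40 genes (rows, grouped by role) in each of the 12 libraries (columns), as log2 of CPM over the mean CPM of D1; red is above and blue below that mean. The 3 MBNL KD columns are the bluest, the RBPMS KD1 columns are pale blue, and the P columns hold both red rows such as Aurkb and blue rows such as Cdc20.

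The promoters of these genes share short sequence features that the choice of genes did not use. RefSeq promoter sequences on GRCr8, from 250 bases before to 50 after each transcription start, were found for 34 of the 40 genes. Ccna2, Aurkb, Incenp, Tpx2, Racgap1 and Ube2c had no entry. The cell cycle genes homology region (CHR), the hexamer bound by the MuvB subunit LIN54, was searched as TTTGAA or TTCGAA on both strands. It was in 26 of the 34 promoters (76.5%), against 19.5% of all 27457 rat promoters of that length. CCAAT, the box bound by NF-Y, was in 25 of the 34 (73.5%) and in 37.7% of all promoters. Both were in 20 of the 34 (58.8%) and in 7.83% of all promoters. The E2F 8-mers TTTCCCGC, TTTCGCGC, TTTGCCGC and TTTGGCGC, also on both strands, were in the promoter of Cdk1 alone, and in 2.25% of all promoters. Outside the 40, the hexamer was in 11 of 18 promoters of further entry kinases and their partners, 17 of 29 of further spindle genes, 14 of 27 of further kinetochore genes, 9 of 18 of condensin and cohesin genes, 7 of 14 of regulators of the mitotic program and 2 of 13 of APC/C genes. CCAAT was in 11 of 18, 20 of 29, 13 of 27, 9 of 18, 5 of 14 and 7 of 13 in the same order. Of the 33 promoters found for 40 DNA replication genes, 17 held an E2F 8-mer, 6 the hexamer and 21 CCAAT (63.6%). In the promoters of Cdca8 and Mki67 a CHR hexamer shared 1 base with a CCAAT box. Below are 30-base windows, 5′ to 3′ on the strand of the gene, around the CHR hexamer nearest the start site (in capitals) of 8 genes whose values are given in full further on. They show the same 6 letters, or in Top2a their reverse complement, in otherwise different sequence, and the number after the strand is the place of the first capital counted from the start site.
Mki67 (chr1:199952675-199952704, minus strand, -99): ccgccgttttcgTTTGAAttgggcgggcac
Top2a (chr10:84473098-84473127, minus strand, -22): gctagatgaatgTTCAAAtgaaactaggga
Cdk1 (chr20:19265265-19265294, plus strand, -16): taccgcggtgagTTTGAAactgctggcact
Plk1 (chr1:186147652-186147681, plus strand, 7): cccagcgctgcgTTTGAAttcggggaggag
Cenpf (chr13:103760867-103760896, minus strand, 3): ggccgcgggcagTTTGAAtcgctcgtgctg
Kif4a (chrX:69761868-69761897, plus strand, -3): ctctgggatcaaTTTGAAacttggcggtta
Cdc20 (chr5:137255833-137255862, minus strand, -51): agacagttgggtTTTGAAggagccaatgaa
Kif23 (chr8:71320646-71320675, minus strand, -79): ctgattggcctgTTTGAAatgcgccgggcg
In 25 of the 26 promoters this hexamer began within 100 bases before the start site or after it. A match describes these letters only, and is neither a shown binding site nor a cause. The 26 genes with the hexamer had a median log2 fold change of -0.66 in MBNL KD and -0.31 in RBPMS KD1. For the 8 whose promoter lacked it the medians were -0.58 and -0.26 in the same order. The 6 with no entry had the lowest median in MBNL KD, -1.10, and -0.31 in RBPMS KD1. In P the medians were 0.12 with the hexamer, -0.040 without it and -0.10 with no entry, which became 0.28, 0.13 and 0.068 after scaling to total counts.

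Knockdown of MBNL was compared with D1 to ask what loss of these splicing factors does to mRNA levels in differentiated cells. All 40 genes were lower in MBNL KD, with every MBNL KD library under every D1 library for each of them, an absence of overlap that 35.6% of all genes tested showed. Their log2 fold changes ran from -1.31 for Cenpf to -0.10 for Kif23, with a median of -0.68, while the median over all 16053 genes tested was 0.010. The test (edgeR's quasi-likelihood F test with Benjamini-Hochberg adjustment over all genes, passed at an adjusted p under 0.05) was passed in this direction by 40 of 40, against 33.7% of all genes tested. A log2 fold change under -1, a fall to less than 50% of D1, was reached as well by 9 of the 40, against 4.14% of all genes (6.1% rose past 2-fold). These 9 were Cenpf, Plk1, Kif4a, Racgap1, Aurkb, Incenp, Ube2c, Ccnb1 and Pttg1. The last 3 lay within 0.04 of that threshold, and 6 of the 9 were past it after scaling to total counts. Without MBNL KD replicate 2 the count was 7 and without replicate 3 it was 8.

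Knockdown of RBPMS was compared with D1 to the same end. In RBPMS KD1, 38 of the 40 were lower by the test and none was higher, against 29.5% lower among the 15904 genes tested. Their median log2 fold change was -0.29, beside 0.0043 over all genes. The steepest falls were those of Cenpf at -0.95, Prc1 at -0.78 and Kif2c at -0.66. Spc24 and Espl1 did not pass the test, and Anln, at -0.075, passed it with an adjusted p of 0.032 that was lost without D1 replicate 2 or 3 and without RBPMS KD1 replicate 2, and after scaling to total counts or quantiles. Ccnb2 no longer passed without D1 replicate 3 or without RBPMS KD1 replicate 2 or 3. No gene of the 40 reached a log2 fold change of -1 (0 by edgeR, DESeq2 and limma, against 1.62% of all genes that fell and 3.06% that rose past 2-fold), although 38 had an unadjusted p under 0.05 by edgeR and DESeq2 and 37 by limma. Both knockdowns were read against the same 3 D1 libraries, so their falls are not independent of each other.

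P was compared with D1 to find what separates the proliferative from the differentiated state. The 40 genes did not move together: 18 were higher in P, 13 were lower and 9 did not pass the test, against 40.4% higher and 37.6% lower among the 16814 genes tested. The median log2 fold change was 0.025, close to the 0.020 of all genes. Aurkb at 0.72, Plk1 at 0.59 and Mki67 at 0.52 were highest, and Cdc20 at -0.84, Anln at -0.57 and Kif23 at -0.52 were lowest. By role, of the 8 kinetochore and centromere genes, 7 were higher and none was lower, while all 4 anaphase and exit genes and 5 of the 7 central spindle and cytokinesis genes were lower, and after scaling to total counts these counts were 8, 3 and 5. None of the 40 reached a 2-fold change by edgeR, DESeq2 or limma, against 16.4% of all genes for a rise and 11.2% for a fall, and an unadjusted p under 0.05 was found for 33 by edgeR, 32 by DESeq2 and 29 by limma. The balance of the split depended on scaling. After scaling to total counts, under which the median of all genes moved from 0.020 to 0.19, 27 genes were higher and 9 lower, which raised the higher share of those that passed from 58.1% to 75.0%, while among all genes that share went from 51.8% to 64.9%. Relative to the median of all genes, the median of the 40 was 0.0045 above it with TMM and 0.12 above it with quantile normalization.

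Summed levels of markers of other cell types differed between the groups. The sum of 8 endothelial markers was 44.1 to 45.4 CPM in P and 0.839 to 0.955 in D1, with 1.89 to 2.07 in RBPMS KD1 and 1.06 to 1.55 in MBNL KD. Of the 8, 4 had counts enough to be tested in P against D1, and all 4 were higher past 2-fold, against 16.4% of all genes. In RBPMS KD1, 2 of 2 tested were higher past 2-fold, against 3.06% of all genes, Tek at 1.32 and Vwf at 1.22 on the log2 scale. Esam stood at 38.6, 37.7 and 39.2 CPM in P and at 0.138, 0.0930 and 0.0690 in D1, and Tek at 3.15, 3.92 and 3.57 in P and 0.265, 0.267 and 0.276 in D1. Vwf stood at 0.901, 1.20 and 1.28 CPM in P and 0.483, 0.465 and 0.425 in D1, and Cdh5 at 1.34, 1.47 and 1.30 in P, with no count in the other 9 libraries. The other 4 had at most 10 counts (Pecam1), 6 counts (Tie1), 4 counts (Kdr) and 0 counts (Emcn) in a P library. Of the smooth muscle markers, 8 of 8 were lower in P, against 37.6% of all genes, and in RBPMS KD1, against 29.5%. In MBNL KD 6 were lower and 2 higher, against 33.7% and 33.8% of all genes. The sum of 8 epithelial markers was 47.7 to 49.0 CPM in D1, 84.7 to 87.8 in P, 49.6 to 53.2 in RBPMS KD1 and 71.1 to 72.4 in MBNL KD. The sum of 8 leukocyte markers was 58.4 to 62.6, 48.9 to 51.1, 84.5 to 87.0 and 52.3 to 55.7 in the same order. Epithelial markers with 3 counts or fewer in every library of a group numbered 5, 3, 5 and 5 of the 8. For leukocyte markers these numbers were 4, 3, 5 and 4, with the groups in that order too. Neither sum therefore describes its whole list, and single genes may differ from it. The part of these marker differences in the values of the mitotic genes was not tested.

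**Figure D2:**
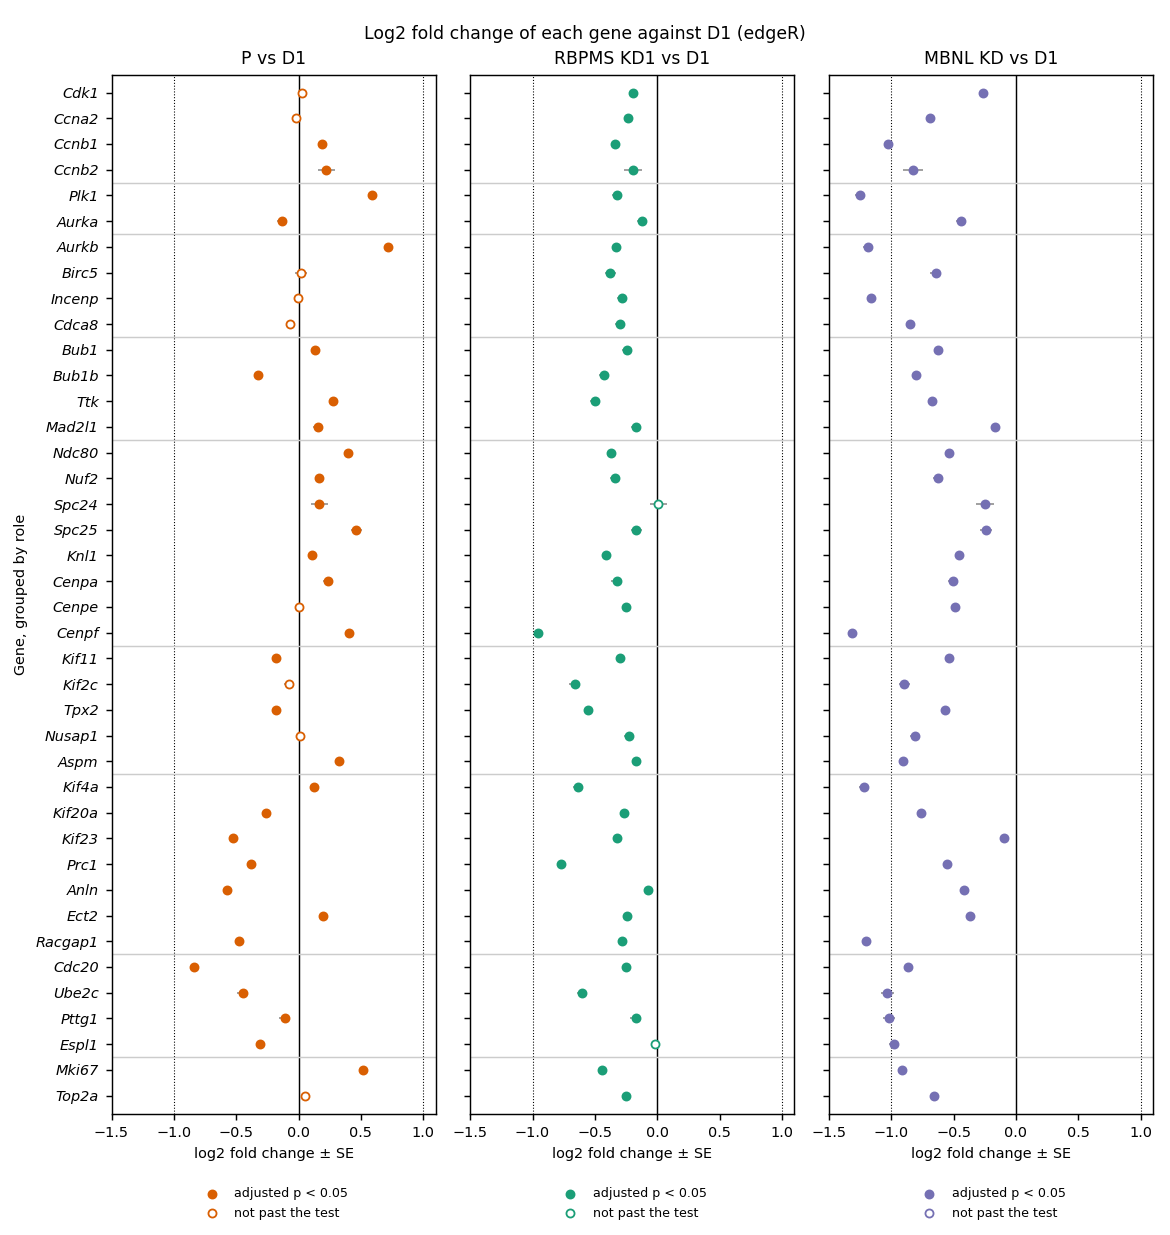
Log2 fold change against D1 with its standard error (horizontal bars, often smaller than the point) for the 40 genes, grouped by role, in P, RBPMS KD1 and MBNL KD; filled points passed the test at an adjusted p under 0.05, and dotted lines mark a change of 2-fold. All points lie left of 0 in MBNL KD, all but Spc24 in RBPMS KD1, and on both sides in P, where Incenp, Ccna2, Cdca8, Kif2c, Pttg1 and Aurka change sign after scaling to total counts.

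The growth marker and a gene of chromosome structure are described first. Mki67 encodes the Ki-67 protein that coats mitotic chromosomes and is the usual marker of proliferation. Mki67 stood at 244, 233 and 242 CPM in D1, at 342, 349 and 337 in P, at 177, 170.2 and 181 in RBPMS KD1 and at 129.7, 124 and 126 in MBNL KD. For Mki67, no group overlapped another, in the order P, D1, RBPMS KD1, MBNL KD from high to low. Mki67 had a log2 fold change (± SE) against D1 of 0.52 ± 0.025 in P (adjusted p = 6.7e-19), -0.44 ± 0.027 in RBPMS KD1 (adjusted p = 4.5e-14) and -0.91 ± 0.026 in MBNL KD (adjusted p = 3.2e-23). Top2a encodes the topoisomerase that untangles sister chromatids. The Top2a libraries read 232, 227 and 231 CPM in D1, 241, 239.7 and 234 in P, 192, 187 and 199 in RBPMS KD1 and 144, 147 and 145 in MBNL KD. P was highest and MBNL KD lowest in Top2a, with D1 and RBPMS KD1 between them in that order and no overlap. Top2a gave log2 fold changes (± SE) against D1 of 0.050 ± 0.024 in P (adjusted p = 0.063), -0.25 ± 0.026 in RBPMS KD1 (adjusted p = 2.1e-09) and -0.66 ± 0.024 in MBNL KD (adjusted p = 2.4e-20). The 2 genes fell together in the knockdowns, whereas in P Mki67 was 1.43-fold higher and Top2a did not pass the test with TMM, although it did with the other 3 scalings.

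CDK1 is the kinase that drives entry into mitosis, with cyclin A2 (Ccna2) before and the B-type cyclins (Ccnb1, Ccnb2) at entry. Cdk1 gave 81.7, 82.2 and 83.8 CPM in D1, 86.9, 83.1 and 83.3 in P, 70.5, 72.0 and 73.1 in RBPMS KD1 and 66.1, 70.1 and 69.0 in MBNL KD. For Cdk1, the order of the means from high to low was P, D1, RBPMS KD1, MBNL KD, and the libraries of P and D1 overlapped. Cdk1, set against D1, had log2 fold changes (± SE) of 0.031 ± 0.029 in P (adjusted p = 0.32), -0.20 ± 0.029 in RBPMS KD1 (adjusted p = 1.1e-06) and -0.26 ± 0.028 in MBNL KD (adjusted p = 1.8e-09). Cdk1 in P passed the test only after scaling to total counts. Ccnb1 stood at 68.3, 66.9 and 68.6 CPM in D1, at 78.3, 80.1 and 74.0 in P, at 52.3, 55.0 and 53.7 in RBPMS KD1 and at 34.4, 33.5 and 32.0 in MBNL KD. For Ccnb1, no group overlapped another, in the order P, D1, RBPMS KD1, MBNL KD from high to low. Ccnb1 had a log2 fold change (± SE) against D1 of 0.19 ± 0.031 in P (adjusted p = 2.1e-06), -0.34 ± 0.032 in RBPMS KD1 (adjusted p = 2.7e-10) and -1.02 ± 0.033 in MBNL KD (adjusted p = 1.5e-21). Ccnb1 fell 2.03-fold in MBNL KD, where Cdk1 fell 1.20-fold. Ccna2 had log2 fold changes of -0.69 in MBNL KD, -0.24 in RBPMS KD1 and -0.020 in P, where it did not pass the test and turned positive and passed after scaling to total counts. Ccnb2 stood at 7.28 ± 0.30 CPM in D1 (SD, n = 3), and had log2 fold changes of -0.83 in MBNL KD, -0.19 in RBPMS KD1 and 0.22 in P. Its rise in P no longer passed the test after quantile normalization or with limma.

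Polo-like kinase 1 (Plk1) and Aurora A (Aurka) mature the centrosomes and build the spindle. The Plk1 libraries read 50.3, 47.1 and 51.5 CPM in D1, 72.5, 79.3 and 72.5 in P, 37.9, 39.8 and 41.5 in RBPMS KD1 and 20.8, 20.5 and 20.9 in MBNL KD. P was highest and MBNL KD lowest in Plk1, with D1 and RBPMS KD1 between them in that order and no overlap. Plk1 gave log2 fold changes (± SE) against D1 of 0.59 ± 0.037 in P (adjusted p = 5.1e-16), -0.32 ± 0.039 in RBPMS KD1 (adjusted p = 5.1e-08) and -1.25 ± 0.040 in MBNL KD (adjusted p = 7.7e-22). Plk1 was 1.51-fold higher in P and 2.38-fold lower in MBNL KD. Plk1 overlaps Ern2 in the annotation, which had at most 2 counts in a library. Aurka moved less, with log2 fold changes of -0.44 in MBNL KD, -0.13 in RBPMS KD1 and -0.13 in P, the last of which was 0.033 after scaling to total counts and no longer passed the test. Aurora B (Aurkb) is the kinase of the chromosomal passenger complex, which corrects faulty attachments and later guides cytokinesis. Aurkb gave 41.2, 41.9 and 42.0 CPM in D1, 69.1, 69.5 and 67.5 in P, 32.9, 34.0 and 32.7 in RBPMS KD1 and 18.5, 18.1 and 18.0 in MBNL KD. From P down through D1 and RBPMS KD1 to MBNL KD, no Aurkb library of one group fell within another. Aurkb, set against D1, had log2 fold changes (± SE) of 0.72 ± 0.032 in P (adjusted p = 3.8e-20), -0.33 ± 0.036 in RBPMS KD1 (adjusted p = 7.8e-09) and -1.19 ± 0.039 in MBNL KD (adjusted p = 2.2e-21). It was the most raised of the 40 genes in P, at 1.65-fold. Incenp, the scaffold of that complex, did not follow it there. Incenp stood at 77.4, 73.4 and 76.4 CPM in D1, at 76.0, 74.1 and 76.7 in P, at 66.5, 60.1 and 60.0 in RBPMS KD1 and at 34.1, 33.0 and 33.7 in MBNL KD. For Incenp, the order of the means from high to low was D1, P, RBPMS KD1, MBNL KD, and the libraries of D1 and P overlapped. Incenp had a log2 fold change (± SE) against D1 of -0.0039 ± 0.029 in P (adjusted p = 0.91), -0.28 ± 0.036 in RBPMS KD1 (adjusted p = 9.2e-08) and -1.17 ± 0.032 in MBNL KD (adjusted p = 2.3e-23). Incenp fell 2.24-fold in MBNL KD, close to the 2.28-fold of Aurkb, and its value in P turned positive and passed after scaling to total counts. The other subunits, survivin (Birc5) and borealin (Cdca8), had log2 fold changes of -0.64 and -0.85 in MBNL KD and of -0.38 and -0.30 in RBPMS KD1. Neither passed the test in P, at 0.019 and -0.066, and both passed as higher there after scaling to total counts, whereas without D1 replicate 1 Cdca8 passed as lower.

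**Figure D3:**
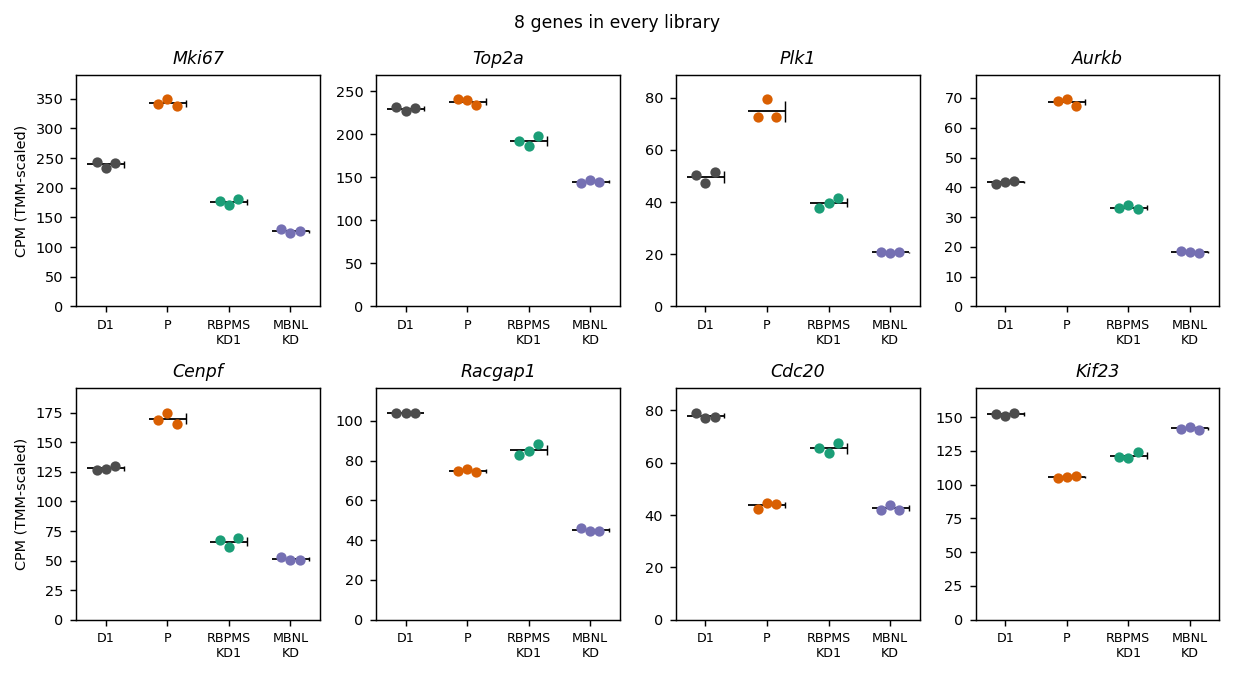
Level of 8 genes in every library, in TMM-scaled CPM on axes that start at 0; points are libraries, horizontal lines are group means and vertical lines are ± SD of 3 libraries. Mki67, Plk1, Aurkb and Cenpf were highest in P, whereas Racgap1, Cdc20 and Kif23 were highest in D1, and Kif23 was lowest in P.

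The spindle checkpoint is built on unattached kinetochores by the kinases MPS1 (Ttk) and BUB1 (Bub1), with BUBR1 (Bub1b) and MAD2 (Mad2l1) as inhibitors of CDC20. The Bub1 libraries read 58.2, 57.7 and 56.1 CPM in D1, 65.2, 62.7 and 60.3 in P, 45.8, 48.4 and 50.6 in RBPMS KD1 and 37.0, 37.1 and 37.0 in MBNL KD. P was highest and MBNL KD lowest in Bub1, with D1 and RBPMS KD1 between them in that order and no overlap. Bub1 gave log2 fold changes (± SE) against D1 of 0.13 ± 0.033 in P (adjusted p = 6.8e-04), -0.25 ± 0.036 in RBPMS KD1 (adjusted p = 9.7e-07) and -0.62 ± 0.033 in MBNL KD (adjusted p = 1.4e-16). Mad2l1 stood among the 3 mildest responses to MBNL knockdown. Mad2l1 gave 40.2, 40.4 and 41.9 CPM in D1, 44.8, 43.4 and 48.4 in P, 35.6, 35.4 and 37.5 in RBPMS KD1 and 36.7, 36.6 and 35.3 in MBNL KD. For Mad2l1, the order of the means from high to low was P, D1, RBPMS KD1, MBNL KD, and the libraries of RBPMS KD1 and MBNL KD overlapped. Mad2l1, set against D1, had log2 fold changes (± SE) of 0.16 ± 0.038 in P (adjusted p = 4.0e-04), -0.17 ± 0.037 in RBPMS KD1 (adjusted p = 2.2e-04) and -0.17 ± 0.036 in MBNL KD (adjusted p = 1.4e-04). Ttk had log2 fold changes of -0.67 in MBNL KD, -0.50 in RBPMS KD1 and 0.28 in P. Bub1b was the exception in P, where it fell by 0.33 on the log2 scale while the other 3 rose, and it had -0.80 in MBNL KD and -0.43 in RBPMS KD1. CDC20 is what the checkpoint restrains, as the coactivator of the APC/C. Cdc20 stood at 79.1, 77.3 and 77.6 CPM in D1, at 42.4, 44.5 and 44.1 in P, at 65.5, 63.5 and 67.7 in RBPMS KD1 and at 42.0, 44.0 and 41.8 in MBNL KD. For Cdc20, the order of the means from high to low was D1, RBPMS KD1, P, MBNL KD, and the libraries of P and MBNL KD overlapped. Cdc20 had a log2 fold change (± SE) against D1 of -0.84 ± 0.031 in P (adjusted p = 3.8e-22), -0.25 ± 0.031 in RBPMS KD1 (adjusted p = 5.8e-08) and -0.86 ± 0.031 in MBNL KD (adjusted p = 1.1e-20). Cdc20 fell 1.79-fold in P, with TMM the largest change of the 40 genes there, and 1.82-fold in MBNL KD.

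Of the kinetochore and centromere genes, 7 of 8 rose in P, all 8 fell in MBNL KD and 7 fell in RBPMS KD1, beside 40.4%, 33.7% and 29.5% of all genes. The NDC80 complex, which grips the spindle microtubules, is made of Ndc80, Nuf2, Spc24 and Spc25, and all 4 were higher in P by the test, Ndc80 at 0.40 and Nuf2 at 0.17 on the log2 scale. In MBNL KD Ndc80 was at -0.53 and Nuf2 at -0.63, and in RBPMS KD1 at -0.37 and -0.34. The Spc25 libraries read 21.5, 21.6 and 20.9 CPM in D1, 31.1, 29.2 and 27.9 in P, 19.0, 18.9 and 19.0 in RBPMS KD1 and 17.6, 17.4 and 18.9 in MBNL KD. P was highest and MBNL KD lowest in Spc25, with D1 and RBPMS KD1 between them in that order and no overlap. Spc25 gave log2 fold changes (± SE) against D1 of 0.46 ± 0.045 in P (adjusted p = 3.7e-11), -0.17 ± 0.045 in RBPMS KD1 (adjusted p = 0.0021) and -0.24 ± 0.048 in MBNL KD (adjusted p = 5.9e-05). Spc25 overlaps Nostrin, which held at most 178 counts in a library, in P. Spc24 gave 8.69, 10.3 and 9.48 CPM in D1, 10.2, 10.7 and 11.1 in P, 10.2, 9.25 and 9.19 in RBPMS KD1 and 8.32, 7.43 and 8.13 in MBNL KD. For Spc24, the order of the means from high to low was P, RBPMS KD1, D1, MBNL KD, and the libraries of P and D1 and those of RBPMS KD1 and D1 overlapped. Spc24, set against D1, had log2 fold changes (± SE) of 0.17 ± 0.067 in P (adjusted p = 0.024), 0.0083 ± 0.070 in RBPMS KD1 (adjusted p = 0.93) and -0.25 ± 0.072 in MBNL KD (adjusted p = 0.0032). Spc24 was the only one of the 40 with a positive log2 fold change in RBPMS KD1, which did not pass the test, and its rise in P was lost without D1 replicate 1 or 3 or P replicate 3, or after quantile normalization. Cenpf, a large protein of the outer kinetochore that peaks before mitosis, was the most lowered of the 40 in both knockdowns. Cenpf stood at 126, 127 and 130.1 CPM in D1, at 169, 175 and 166 in P, at 67.4, 61.7 and 68.8 in RBPMS KD1 and at 52.9, 50.5 and 50.5 in MBNL KD. For Cenpf, no group overlapped another, in the order P, D1, RBPMS KD1, MBNL KD from high to low. Cenpf had a log2 fold change (± SE) against D1 of 0.41 ± 0.027 in P (adjusted p = 2.0e-15), -0.95 ± 0.033 in RBPMS KD1 (adjusted p = 8.1e-20) and -1.31 ± 0.027 in MBNL KD (adjusted p = 2.1e-26). It fell 2.48-fold in MBNL KD and 1.94-fold in RBPMS KD1, and it rose 1.33-fold in P. Knl1, the scaffold for the BUB proteins, had log2 fold changes of -0.46, -0.41 and 0.11 in MBNL KD, RBPMS KD1 and P. The centromeric histone gene Cenpa had -0.50, -0.33 and 0.23 in the same order. The kinetochore motor gene Cenpe had -0.49 and -0.25 in the knockdowns, and its 0.00059 in P did not pass the test except after scaling to total counts.

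All 5 spindle motors and assembly factors fell in both knockdowns, beside 33.7% of all genes in MBNL KD and 29.5% in RBPMS KD1. In P 1 was higher and 2 were lower, a split near or under the 40.4% and 37.6% of all genes, and 3 were higher and none lower after scaling to total counts. MCAK (Kif2c) removes tubulin from microtubule ends. The Kif2c libraries read 37.5, 39.6 and 40.7 CPM in D1, 37.9, 37.7 and 35.9 in P, 26.8, 23.7 and 23.9 in RBPMS KD1 and 20.6, 21.0 and 21.5 in MBNL KD. For Kif2c, the order of the means from high to low was D1, P, RBPMS KD1, MBNL KD, and the libraries of D1 and P overlapped. Kif2c gave log2 fold changes (± SE) against D1 of -0.080 ± 0.038 in P (adjusted p = 0.055), -0.66 ± 0.046 in RBPMS KD1 (adjusted p = 4.5e-13) and -0.89 ± 0.041 in MBNL KD (adjusted p = 7.7e-18). It was the third most lowered of the 40 in RBPMS KD1, 1.58-fold, while in P it did not pass the test and was higher by the test after scaling to total counts and lower by it without D1 replicate 1. Eg5 (Kif11), the motor that pushes the poles apart, had log2 fold changes of -0.54 in MBNL KD, -0.30 in RBPMS KD1 and -0.18 in P. Tpx2, which activates Aurora A on the spindle, had -0.57, -0.55 and -0.18 in the same order, and the falls of both Kif11 and Tpx2 in P no longer passed the test after scaling to total counts. Nusap1, a microtubule bundling protein, had -0.81 and -0.23 in the knockdowns and did not pass the test in P at 0.014. Aspm, which organises the spindle poles, had -0.90 in MBNL KD but -0.17 in RBPMS KD1, and it was higher in P at 0.32.

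The 7 genes of the central spindle and cytokinesis fell in both knockdowns to unlike degrees, beside the same shares of all genes. Centralspindlin is a complex of Racgap1 and the motor MKLP1 (Kif23), and its 2 genes lay far apart in MBNL KD. Racgap1 gave 104, 104 and 104 CPM in D1, 74.6, 76.1 and 74.1 in P, 83.0, 84.9 and 88.3 in RBPMS KD1 and 46.1, 44.4 and 44.8 in MBNL KD. From D1 down through RBPMS KD1 and P to MBNL KD, no Racgap1 library of one group fell within another. Racgap1, set against D1, had log2 fold changes (± SE) of -0.48 ± 0.027 in P (adjusted p = 6.2e-17), -0.28 ± 0.029 in RBPMS KD1 (adjusted p = 1.3e-09) and -1.20 ± 0.028 in MBNL KD (adjusted p = 2.7e-25). Kif23 stood at 152, 150.5 and 153 CPM in D1, at 105, 106 and 107 in P, at 120.5, 119.8 and 124 in RBPMS KD1 and at 141, 143 and 141 in MBNL KD. For Kif23, no group overlapped another, in the order D1, MBNL KD, RBPMS KD1, P from high to low. Kif23 had a log2 fold change (± SE) against D1 of -0.52 ± 0.025 in P (adjusted p = 5.7e-19), -0.32 ± 0.026 in RBPMS KD1 (adjusted p = 1.9e-11) and -0.10 ± 0.022 in MBNL KD (adjusted p = 3.3e-04). Racgap1 fell 2.30-fold in MBNL KD, where Kif23 fell 1.07-fold, and both fell in P. Kif23 was still past the test in MBNL KD by edgeR with TMM, but not after scaling to total counts or quantiles. Prc1 encodes the bundler of antiparallel microtubules. The Prc1 libraries read 234, 227 and 230.1 CPM in D1, 179, 174 and 179 in P, 132, 133 and 138 in RBPMS KD1 and 154, 155 and 159 in MBNL KD. D1 was highest and RBPMS KD1 lowest in Prc1, with P and MBNL KD between them in that order and no overlap. Prc1 gave log2 fold changes (± SE) against D1 of -0.38 ± 0.025 in P (adjusted p = 2.1e-15), -0.78 ± 0.026 in RBPMS KD1 (adjusted p = 6.1e-20) and -0.55 ± 0.025 in MBNL KD (adjusted p = 3.4e-18). Kif4a encodes a chromokinesin that works with PRC1. Kif4a gave 61.3, 57.6 and 58.2 CPM in D1, 64.6, 64.5 and 64.0 in P, 38.3, 35.9 and 39.9 in RBPMS KD1 and 26.9, 24.7 and 24.0 in MBNL KD. From P down through D1 and RBPMS KD1 to MBNL KD, no Kif4a library of one group fell within another. Kif4a, set against D1, had log2 fold changes (± SE) of 0.12 ± 0.031 in P (adjusted p = 6.4e-04), -0.63 ± 0.038 in RBPMS KD1 (adjusted p = 2.6e-14) and -1.22 ± 0.040 in MBNL KD (adjusted p = 1.5e-21). Kif4a fell 2.33-fold in MBNL KD and rose 1.09-fold in P. Anln encodes anillin, a scaffold of the contractile ring. Anln stood at 85.0, 85.9 and 87.3 CPM in D1, at 57.9, 59.6 and 56.5 in P, at 83.3, 78.8 and 82.9 in RBPMS KD1 and at 66.9, 63.8 and 61.8 in MBNL KD. For Anln, no group overlapped another, in the order D1, RBPMS KD1, MBNL KD, P from high to low. Anln had a log2 fold change (± SE) against D1 of -0.57 ± 0.030 in P (adjusted p = 5.0e-18), -0.075 ± 0.030 in RBPMS KD1 (adjusted p = 0.032) and -0.42 ± 0.029 in MBNL KD (adjusted p = 1.6e-13). Anln has a close paralog, Anlnl1, with up to 8597 counts in a library, and how reads were divided between them is not known. Anlnl1 had log2 fold changes of -0.53 in P, -0.033 in RBPMS KD1 and -0.43 in MBNL KD, near those of Anln. Ect2, the exchange factor that switches on RhoA at the cleavage furrow, had -0.37, -0.24 and 0.20 in MBNL KD, RBPMS KD1 and P. MKLP2 (Kif20a), which carries the passenger complex to the central spindle, had -0.76, -0.27 and -0.26.

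All 4 genes of anaphase and mitotic exit were lower in P and in MBNL KD by the test, beside 37.6% and 33.7% of all genes. Ube2c is the ubiquitin-conjugating enzyme of the APC/C. The Ube2c libraries read 34.1, 35.4 and 36.0 CPM in D1, 24.4, 26.5 and 26.4 in P, 22.8, 22.3 and 24.3 in RBPMS KD1 and 18.6, 15.4 and 17.4 in MBNL KD. D1 was highest and MBNL KD lowest in Ube2c, with P and RBPMS KD1 between them in that order and no overlap. Ube2c gave log2 fold changes (± SE) against D1 of -0.45 ± 0.041 in P (adjusted p = 1.2e-11), -0.60 ± 0.043 in RBPMS KD1 (adjusted p = 7.3e-13) and -1.03 ± 0.051 in MBNL KD (adjusted p = 3.3e-17). Pttg1 is securin, the inhibitor of separase that the APC/C destroys. Pttg1 gave 27.4, 27.6 and 28.2 CPM in D1, 24.0, 26.3 and 26.8 in P, 23.6, 24.9 and 25.2 in RBPMS KD1 and 13.5, 13.1 and 14.3 in MBNL KD. For Pttg1, the order of the means from high to low was D1, P, RBPMS KD1, MBNL KD, and the libraries of P and RBPMS KD1 overlapped. Pttg1, set against D1, had log2 fold changes (± SE) of -0.11 ± 0.044 in P (adjusted p = 0.022), -0.17 ± 0.042 in RBPMS KD1 (adjusted p = 8.2e-04) and -1.02 ± 0.048 in MBNL KD (adjusted p = 1.3e-17). The fall of Pttg1 in P was small, was lost without D1 replicate 3 or P replicate 1, and was 0.055 and not past the test after scaling to total counts. Separase itself (Espl1) cuts cohesin between sister chromatids. Espl1 stood at 63.8, 61.1 and 60.8 CPM in D1, at 48.4, 52.7 and 49.3 in P, at 61.4, 60.6 and 61.4 in RBPMS KD1 and at 31.3, 30.9 and 31.5 in MBNL KD. For Espl1, the order of the means from high to low was D1, RBPMS KD1, P, MBNL KD, and the libraries of D1 and RBPMS KD1 overlapped. Espl1 had a log2 fold change (± SE) against D1 of -0.31 ± 0.035 in P (adjusted p = 1.3e-09), -0.017 ± 0.031 in RBPMS KD1 (adjusted p = 0.68) and -0.98 ± 0.034 in MBNL KD (adjusted p = 5.9e-21). Espl1 fell 1.97-fold in MBNL KD and did not pass the test in RBPMS KD1, a difference between the knockdowns of -0.97 ± 0.034 on the log2 scale (adjusted p = 3.9e-21).

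The 2 knockdowns were then compared with each other, a test that leaves D1 out. In MBNL KD, 34 of the 40 genes were lower than in RBPMS KD1, against 34.5% of the 16111 genes tested, 2 were higher, against 35.1%, and 4 did not pass the test. The median log2 difference was -0.37, beside 0.012 over all genes. Espl1 at -0.97, Plk1 at -0.94 and Racgap1 at -0.92 differed most. Incenp at -0.89, Aurkb at -0.87 and Pttg1 at -0.85 came next, and none of the 40 reached 2-fold by edgeR, DESeq2 or limma, against 6.03% of all genes lower and 5.88% higher, though 36 had an unadjusted p under 0.05 by edgeR and DESeq2 and 35 by limma. The 2 genes higher in MBNL KD, Kif23 at 0.22 ± 0.025 and Prc1 at 0.22 ± 0.025, belong to the 7 genes of the central spindle and cytokinesis, of which the other 5 were lower. The 4 that did not pass were Mad2l1, Knl1, Tpx2 and Spc25, whose differences had 95% intervals of -0.074 to 0.075, -0.12 to 0.017, -0.076 to 0.038 and -0.18 to 0.020. Cdk1, at -0.071, passed with an adjusted p of 0.041 and was at 0.00074 after quantile normalization. That call was lost without RBPMS KD1 replicate 3 or MBNL KD replicate 1, whereas Knl1 passed without RBPMS KD1 replicate 2 and Spc25 without MBNL KD replicate 3.

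P and RBPMS KD1, which both had less Rbpms and a lower sum of smooth muscle markers than D1, the latter far lower in P, were compared directly as well. Here 30 of the 40 genes were higher in P, against 40.5% of the 16899 genes tested, and 5 were lower, against 39.0%. The median log2 difference was 0.33, beside 0.0055 over all genes. Cenpf at 1.34 ± 0.034 and Aurkb at 1.02 ± 0.035 exceeded 2-fold, against 16.1% of all genes (13.0% for a fall), followed by Mki67 at 0.93 and Plk1 at 0.89. The 5 genes lower in P were Cdc20 at -0.61, Anln at -0.52, Espl1 at -0.31, Kif23 at -0.23 and Racgap1 at -0.21. Of the 7 genes of the central spindle and cytokinesis, 3 were higher and 3 lower in P, and of the 4 of anaphase and exit 1 was higher and 2 lower. The 5 that did not pass were Aurka at -0.032, Kif20a at -0.018, Pttg1 at 0.039, Bub1b at 0.078 and Spc24 at 0.13. Bub1b passed as higher in P under 8 alternatives and Spc24 under 7, DESeq2 size factors, total counts and counts divided by 2 among them for both. Aurka, Kif20a and Pttg1 passed as higher only after scaling to total counts. Under that scaling the counts were 35 higher, 3 lower and 4 past 2-fold, as Mki67 and Plk1 were added and Kif23 and Racgap1 no longer passed. Kif11 was no longer higher by the test without P replicate 1 or 3 or RBPMS KD1 replicate 1, and Ube2c without P replicate 2 or 3 or RBPMS KD1 replicate 2.

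**Figure D4:**
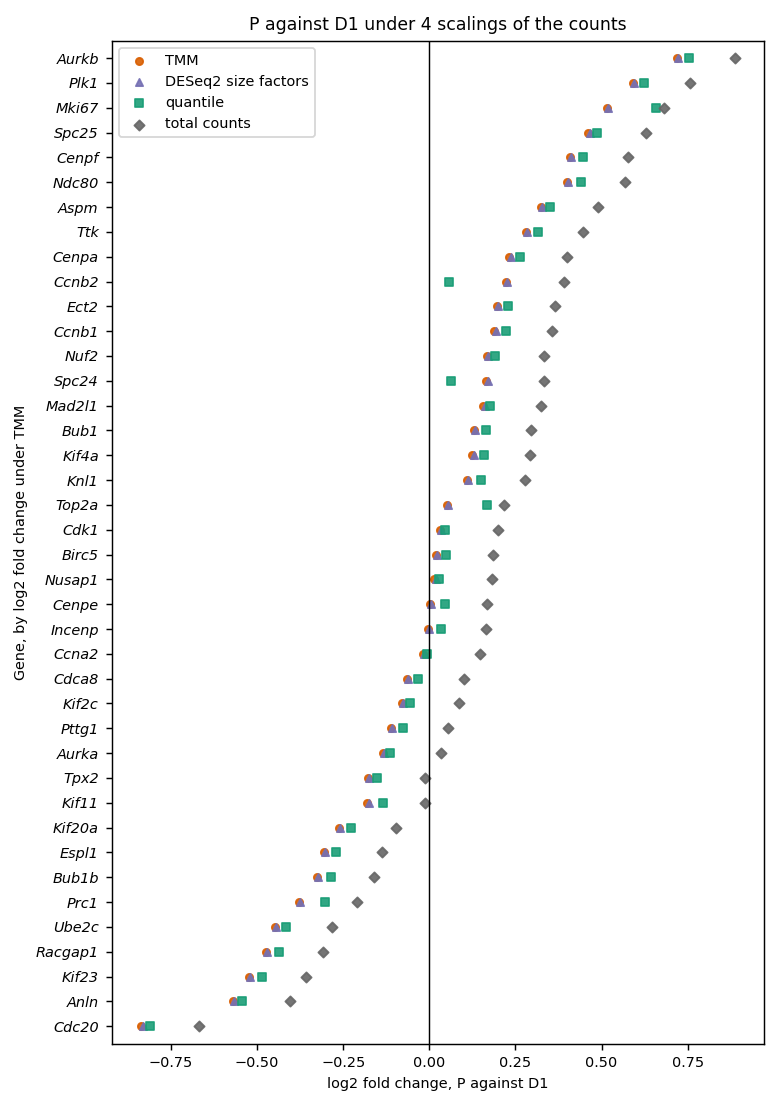
Log2 fold change of the 40 genes in P against D1 under 4 ways of scaling the counts (symbols), with genes ordered by the TMM value. Scaling to total counts shifts all points to the right by a like amount, which carries Incenp, Ccna2, Cdca8, Kif2c, Pttg1 and Aurka across 0, while Aurkb, Plk1 and Mki67 stay highest and Cdc20 stays lowest.

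Genes that regulate the mitotic program were read as a list of 20. For these and the lists that follow, the shares of all genes that passed the test were 33.8% higher and 33.7% lower in MBNL KD, 29.5% in each direction in RBPMS KD1, and 40.4% higher and 37.6% lower in P. In MBNL KD the list held 4 higher and 13 lower by the test, in RBPMS KD1 3 higher and 13 lower, and in P 8 higher and 6 lower, near the shares of all genes, which became 13 higher and 5 lower after scaling to total counts. Mybl2 encodes B-MYB, the MYB protein of the MuvB complex. The Mybl2 libraries read 39.6, 38.3 and 40.6 CPM in D1, 46.7, 46.2 and 45.0 in P, 27.1, 26.1 and 28.0 in RBPMS KD1 and 13.8, 13.7 and 13.9 in MBNL KD. Mybl2 was lowest in MBNL KD with no overlap with any other group, at a log2 fold change of -1.51 ± 0.043, and was at -0.54 in RBPMS KD1 and 0.22 in P. Foxm1 gave 46.9, 48.0 and 48.3 CPM in D1, 47.9, 50.9 and 49.9 in P, 37.0, 38.6 and 41.7 in RBPMS KD1 and 28.7, 29.3 and 31.4 in MBNL KD. Foxm1, the gene of the other activator, had log2 fold changes of -0.67 in MBNL KD and -0.29 in RBPMS KD1, and 0.053 in P, which did not pass the test. Lin9, a MuvB core gene, had -0.49 in MBNL KD and -0.48 in RBPMS KD1, and its 0.15 in P did not pass the test. For both Foxm1 and Lin9 the value in P passed as higher after scaling to total counts. E2f1 was lower in MBNL KD at -0.76, in P at -0.25 and in RBPMS KD1 at -0.10 (adjusted p = 0.045), and its values in P and RBPMS KD1 did not pass after scaling to total counts. Past 2-fold in MBNL KD were, besides Mybl2, the repressor E2f7 at -1.45, the E2F partner Tfdp2 at -1.36 and Rb1 at -1.12. In P those past 2-fold were E2f5 at -2.60 and Tfdp2 at -1.26.

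Mitotic genes outside the 40 were counted the same way. Of 31 further spindle and cytokinesis genes, 27 were lower and 1 higher in MBNL KD (median -0.54 on the log2 scale), 27 lower and 3 higher in RBPMS KD1 (median -0.31), and 16 lower and 9 higher in P (median -0.085). Cit, the citron kinase of late cytokinesis, at -1.23, with the kinesin genes Kif14 at -1.13 and Kifc1 at -1.01, passed 2-fold in MBNL KD. After scaling to total counts that split in P was 16 higher and 8 lower. In P, Kif24 at 1.24 and Depdc1b at 1.24 rose past it and Pimreg at -1.01 fell past it. Of 32 further kinetochore and checkpoint genes, 25 were lower and 2 higher in MBNL KD, 26 lower and none higher in RBPMS KD1, and 11 lower and 10 higher in P, or 8 lower and 17 higher there with total counts. Zwint, a kinetochore gene, fell in P at -1.59, from 586 ± 11.7 to 195 ± 2.74 CPM (mean ± SD, n = 3). Of 20 condensin, cohesin and shugoshin genes, 15 were lower and 1 higher in MBNL KD, where the condensin gene Ncapd2 was at -1.01, and 19 were lower and none higher in RBPMS KD1. In P, 14 of these 20 were higher and 2 lower, with the cohesin gene Stag1 at 1.14. Entry kinases, phosphatases and inhibitors, 21 in all, counted 16 lower and 2 higher in MBNL KD, 9 lower and 4 higher in RBPMS KD1, and 9 lower and 8 higher in P, or 5 lower and 13 higher there with total counts. The counts with TMM in P lay near the 37.6% lower and 40.4% higher of all genes. Arpp19 at -1.25 and Nek9 at -1.18, which encode an inhibitor of PP2A and a kinase, passed 2-fold in MBNL KD.

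Other lists of the cell cycle were counted as well. The 16 core and cofactor genes of the APC/C split 8 lower and 4 higher in MBNL KD, or 7 and 7 after quantile normalization, 6 lower and 7 higher in RBPMS KD1, and 11 lower and 5 higher in P, beside 33.7% lower and 33.8% higher, 29.5% each, and 37.6% lower and 40.4% higher of all genes. Of these, Ube2s at -1.17 and Anapc16 at 1.07 passed 2-fold in MBNL KD. Of 40 DNA replication genes, 34 were lower and 3 higher in MBNL KD with a median of -0.32, beside -0.68 for the 40 mitotic genes, and 30 were lower and 2 higher in RBPMS KD1 with a median of -0.23. The helicase gene Mcm6 at -1.92, the ribonucleotide reductase gene Rrm2 at -1.72 and the flap nuclease gene Fen1 at -1.01 passed 2-fold in MBNL KD. In P, 23 replication genes were higher and 11 lower, or 29 and 6 with total counts, and the primase gene Prim1 at 1.26 and the polymerase alpha gene Pola1 at 1.04 were past 2-fold. Of 16 G1 cyclins and CDK inhibitors, 15 were tested in each knockdown and all 16 in P, with 6 higher and 7 lower in MBNL KD, 6 higher and 8 lower in RBPMS KD1 and 9 higher and 7 lower in P, beside the shares of all genes just given. Cdkn1a encodes p21, the inhibitor of CDKs that holds cells out of the cycle. Cdkn1a stood at 227, 227 and 232 CPM in D1, at 65.5, 63.6 and 62.7 in P, at 307, 294 and 294 in RBPMS KD1 and at 349, 356 and 343 in MBNL KD. Its level was lowest in P at a log2 fold change of -1.84 ± 0.027, and it was higher than D1 in both RBPMS KD1 at 0.39 ± 0.025 and MBNL KD at 0.62 ± 0.025, with no overlap of D1 with any group. In P the cyclin genes Ccnd1 at 1.30 and Ccnd2 at 1.78 rose and Ccne1 at -1.70 fell. Ccnd2 was opposite in the knockdowns, at -1.33 in RBPMS KD1 and 1.15 in MBNL KD. Cdkn1c had 12, 10 and 14 counts in P and 3, 0 and 0 in D1, too few for a fold change to be given.

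**Figure D5:**
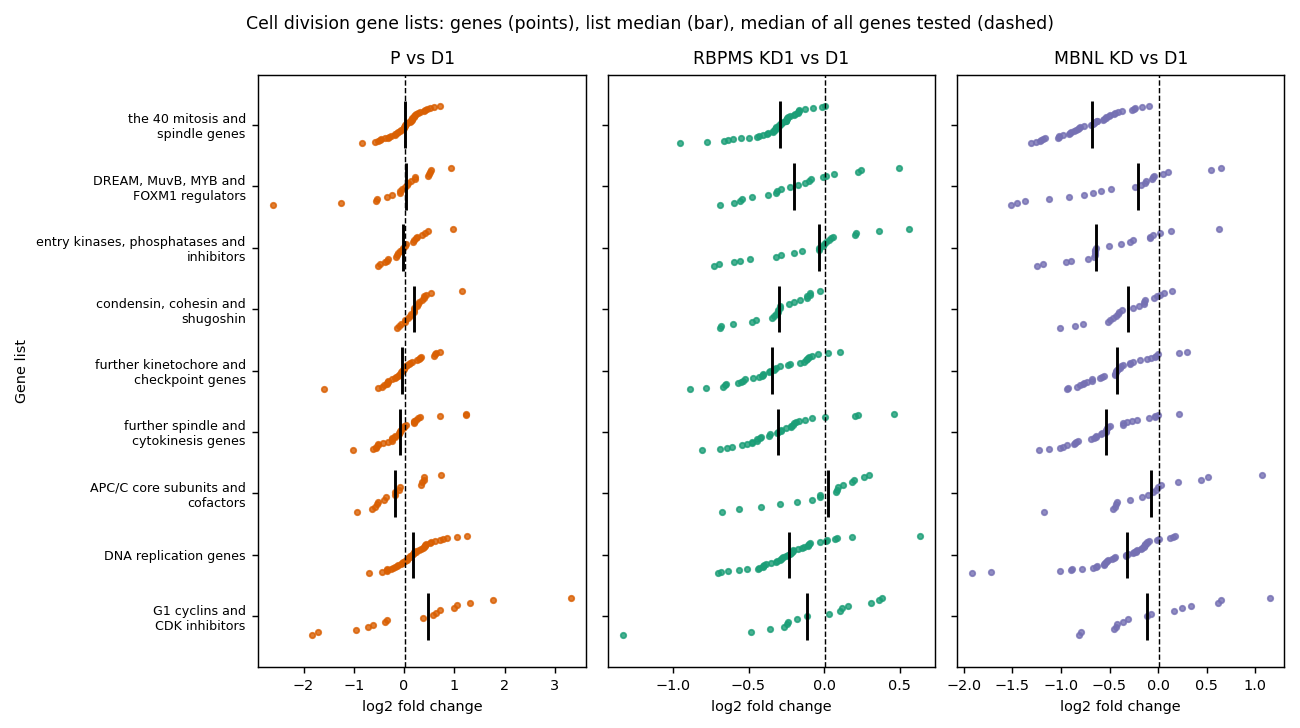
Log2 fold change against D1 of each gene (points) in the 40 mitotic genes and 8 other cell division lists, with the median of each list (bar) and of all genes tested (dashed line); the 3 horizontal axes have different ranges. The bar of the 40 genes lies at -0.68 in MBNL KD, -0.29 in RBPMS KD1 and 0.025 in P, where it was 0.19 after scaling to total counts. The point farthest right in P is Cdkn1c, which had 3 counts or fewer in the D1 libraries.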

How the data were processed

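Per the authors' methods, reads from the 12 libraries were subsampled with seqtk, aligned with STAR 2.7.11b to mRatBN7.2 and counted per gene with featureCounts, and the raw counts were deposited. A second deposited table holds a signal per gene that the authors corrected with noisyR and quantile normalized. Even counts up to 20 were 2.01 to 2.30 times as frequent as odd ones, and neither the counting of mates nor the strand setting is stated, so fits were repeated on counts divided by 2. Here, the 6 libraries of each comparison were tested on the counts with edgeR 4.0.16 (TMM, filterByExpr, quasi-likelihood F test, R 4.3.3), with Benjamini-Hochberg adjustment over all genes tested. A gene passed at an adjusted p under 0.05, and 2-fold means a log2 fold change beyond 1 as well. Per-library values are CPM on the TMM-scaled libraries. The methods state at least 3 biological replicates, but the labels do not tie libraries to cultures, so p-values measure the spread between these libraries.

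The 40 genes and all other lists were chosen with earlier results of these data known. Full values are given for Mki67, Top2a, Cdk1, Ccnb1, Plk1, Aurkb, Bub1 and Cdc20, for those past 2-fold against D1 and for the 3 highest and 3 lowest in each comparison with D1. From the other lists, at most 5 genes past 2-fold per list and comparison are named, besides Foxm1, Mybl2, Lin9, E2f1 and Cdkn1a. Alternatives were DESeq2 1.42.0, limma 3.58.1 on the log2 signal, other scalings and filters, and leaving out each library. On simulated data for P against D1 with 16539 genes, 42 of 50 genes changed 1.25-fold and 50 of 50 changed 1.5-fold were recovered. The simulation gave every gene the same dispersion and changed few genes, unlike these data. It therefore checks that the fit runs correctly, and does not give the share recovered here. Same-numbered libraries did not deviate together, with correlations over all genes of -0.030 to 0.017. Promoters came from RefSeq on GRCr8, another build than that of the counts, and were matched by symbol.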

Additional observations from a re-analysis of the deposited data

How the results depend on the processing

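Most values of the 40 genes kept their direction and their side of the threshold. Moves across the test's threshold came from many alternatives, left-out libraries among them. Changes of sign were counted only where the value passed the test before or after. Of these 10, 8 came with scaling to total counts. Under it, 6 log2 fold changes of P against D1 turned from negative to positive, to 0.15 for Ccna2, 0.16 for Incenp, 0.10 for Cdca8, 0.087 for Kif2c, 0.055 for Pttg1 and 0.033 for Aurka, of which the first 4 then passed the test as higher. For P against RBPMS KD1 the same scaling turned Aurka to 0.14 and Kif20a to 0.16, raised the genes past 2-fold from 2 to 4 and lowered the genes lower in P from 5 to 3. Cdk1 in MBNL KD against RBPMS KD1 turned to 0.00074 with quantile normalization and 0.0015 with limma. The construction of total-count scaling, which leaves out the TMM factors, moved the median of all genes in P against D1 from 0.020 to 0.19. That of the quantile scaling moved it to -0.068. The size of small changes in P therefore depends on the scaling, and for some genes the call does too. Knl1 at 0.11, Kif4a at 0.12 and Bub1 at 0.13 with TMM passed as higher under all 4 scalings. The count past 2-fold in MBNL KD was 6 with total counts, quantile normalization or limma in place of 9. At an adjusted p under 0.01, 12 genes were lower and 17 higher in P than in D1, and 36 were lower in RBPMS KD1.

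Leaving out 1 library at a time gave 12 to 15 genes lower and 17 to 18 higher in P against D1, 36 to 38 lower in RBPMS KD1, 40 lower and 7 to 9 past 2-fold in MBNL KD, 28 to 31 higher and 5 lower in P against RBPMS KD1, and 33 to 35 lower in MBNL KD against RBPMS KD1. The libraries share only a replicate number: over the 40 genes, same-numbered libraries correlated at -0.30 to 0.21, and a fit with a replicate block gave, as without it, 13 lower and 18 higher in P, 38 lower in RBPMS KD1, and 40 lower and 9 past 2-fold in MBNL KD. Counts of these genes run from 333 up. The limits are the 3 libraries of a group, the unstated counting of strands and mates, the paralog of Anln and the passage history that goes with P, and no cell cycle stage was measured in these libraries.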
